A study of Mus musculus with 6 samples.

Results

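Genes of the primary cilium were examined in mouse small-cell lung cancer (SCLC) cells by RNA-seq. A symbol counted as a member if it named an intraflagellar transport gene (Ift plus a number), a Bardet-Biedl syndrome gene (Bbs plus a number) or one of a short list of cilium genes of the transition zone, the dynein-2 motor and the ciliary membrane. This rule used no measured value, but it was chosen with earlier results of these data known. It gave 52 members of 23361 gene symbols. The study asked what active TAZ does to SMC, the metastasizing cells of SCLC. SMC were sorted for high NCAM and low or absent CD44 from lung tumours of Rb1L/L, Trp53L/L mice of mixed C57Bl/6, Balb-c and S129 background, so both groups share these alleles. Per the paper, the mice received Cre adenovirus through the trachea to recombine these floxed alleles. Its genotyping found both genes deleted in SMC sorted from such tumours. SMC-TAZ-4SA (3 libraries) carried a retrovirus with TAZ-4SA, the active mutant form of the co-activator TAZ, and SMC-Ctrl (3 libraries) carried the control virus, both being selected with puromycin and otherwise untreated. The labels name 1 cell line and do not say whether it is a clone, nor whether libraries came from separate cultures, so the p-values cover the spread among these libraries alone, which may be technical. The data statement of the paper lists the same deposit as SMC against non-SMC, and the sample titles and the design text were followed here. No cilia were counted in these files, which hold RNA levels alone.

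The primary cilium is a single antenna-like organelle that grows from the mother centriole of many non-dividing cells and gathers receptors such as those of the Hedgehog pathway. Its parts are built and kept up by intraflagellar transport (IFT). Trains of the IFT-B complex are carried to the tip by kinesin-2, and the IFT-A complex and the dynein-2 motor serve the way back. The BBSome is an adaptor by which membrane proteins leave the cilium, and the transition zone at the base is the gate that sets its content. Pulmonary neuroendocrine cells, from which SCLC can arise, are among the cells that can carry a primary cilium.

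Levels are given as FPKM (fragment numbers corrected for the length of the transcript and for sequencing depth), which allows levels to be compared between genes. Group differences are log2 fold changes of FPKM + 1, SMC-TAZ-4SA minus SMC-Ctrl, from limma, and the 2-fold mark below is also on that scale, which understates changes of low genes. Totals of FPKM were 324938 to 361800 in SMC-TAZ-4SA and 284422 to 297034 in SMC-Ctrl. FPKM keeps no read number, so absolute depth is unknown. Steps of the low values gave relative depths of 0.713 to 0.964 in SMC-TAZ-4SA and 0.968 to 1.09 in SMC-Ctrl, so low values were least precise in SMC-TAZ-4SA. Wwtr1, which encodes TAZ, was at 31.7, 36.0 and 35.8 FPKM in SMC-TAZ-4SA, against 0.162, 0.105 and 0.162 FPKM in SMC-Ctrl. The 6 neuroendocrine markers summed to 2.02 to 2.88 FPKM in SMC-TAZ-4SA and to 1169 to 1247 FPKM in SMC-Ctrl, and the 5 mesenchymal markers to 2896 to 3358 FPKM in SMC-TAZ-4SA and to 0.272 to 0.386 FPKM in SMC-Ctrl. Ncam1, a sorting marker of SMC, was higher in SMC-TAZ-4SA (log2 fold change 1.83). The paper reports the opposite for protein, with NCAM strongly lowered by TAZ-4SA on western blots of SMC, whereas the values here are RNA. The 4 defining fibroblast markers were below the expression filter, with summed levels of 0.687 to 0.9997 FPKM in SMC-TAZ-4SA and 0.501 to 0.633 FPKM in SMC-Ctrl. In bulk RNA, fewer cells of a kind and less RNA per cell cannot be told apart.

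Of the 52 members, 51 were tested, having 1 FPKM or more in 3 or more libraries. The response was mixed, with higher and lower genes in each of the 6 roles. limma with Benjamini-Hochberg adjustment called 16 members higher and 25 lower in SMC-TAZ-4SA at a threshold of 0.05, and 10 did not pass. Over all 12141 tested genes, 80.3% were called, 40.7% higher and 39.7% lower, so the share of members called (80.4%) was near the background, with 31.4% higher and 49.0% lower. For 41 members (80.4%) the groups were free of overlap, beside 82.4% of all tested genes. A tested gene is counted as meeting the filter in both groups where any library of each group reached 1 FPKM. It is counted in a single group where no library of the other did. Of the members called higher, 2 met the filter in SMC-TAZ-4SA alone and so had to be higher to be tested. Among the 49 that met it in both groups, 14 were higher and 25 lower. When each library was scaled to the same FPKM total, 8 members were higher and 31 lower, and the roles of the BBSome and of initiation and membrane composition then held no gene called higher. That scaling moved the median change over all tested genes to −0.19 (log2), against 0.02 as deposited, and the share of all calls that were higher to 40.1%, against 50.6%.

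The median log2 fold change of the members was −0.18, beside 0.02 over all tested genes. Without regard to sign the median was smaller for the members (0.35) than over all tested genes (0.62). Among the 2987 tested genes at the expression level of the middle range of the members, the median was −0.11, and without sign also 0.62. Of these genes, 35.6% were higher and 44.7% lower. Of the members, 12 (23.5%) were called with at least a 2-fold change, 8 lower and 4 higher, beside 32.2% of all tested genes (15.5% higher and 16.7% lower). The summed level of all members was 419 to 478 FPKM in SMC-TAZ-4SA and 458 to 483 FPKM in SMC-Ctrl, so that these ranges overlapped. On the deposited scale they overlapped only with Ift43 included, which was left out after its values were seen. The other 51 members summed to 361.8 to 404.1 FPKM in SMC-TAZ-4SA and to 443.5 to 464.7 FPKM in SMC-Ctrl, without overlap. These sums were not scaled to the same FPKM total. The totals were higher in SMC-TAZ-4SA (324938 to 361800) than in SMC-Ctrl (284422 to 297034), so the overlap depends on the scale too.

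**Figure D1:**
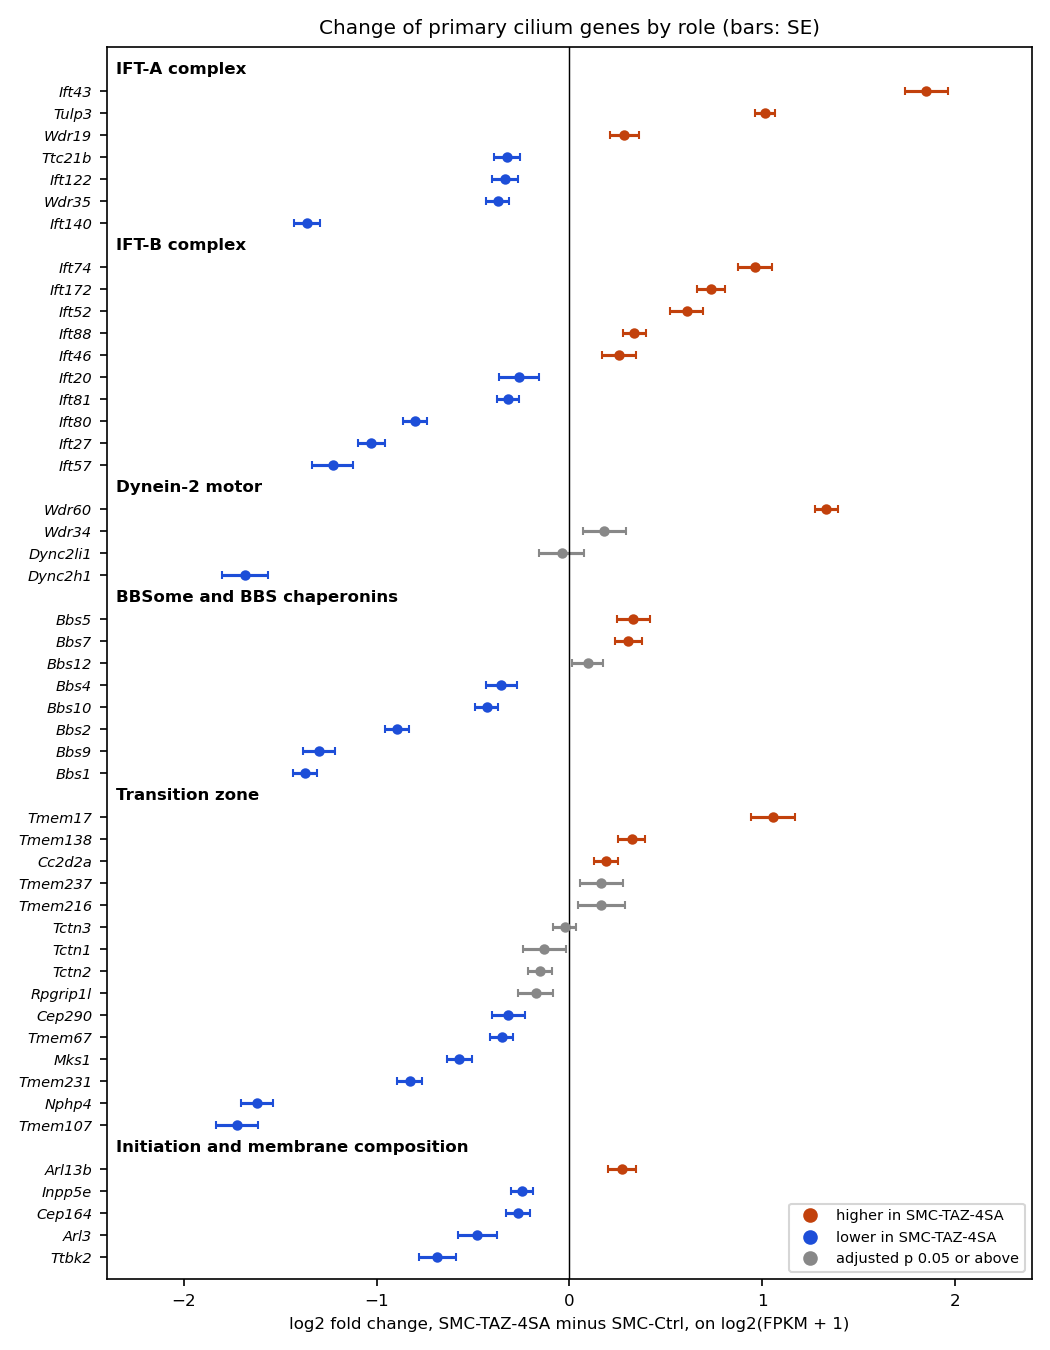
Log2 fold changes of log2(FPKM + 1), SMC-TAZ-4SA minus SMC-Ctrl, for 49 of the 51 tested cilium genes, grouped by role. Points are limma estimates from 3 libraries per group and bars are their standard errors. Orange points were called higher (15), blue points lower (25), and grey points did not pass (9). Each of the 6 roles holds genes on both sides of 0, from Tmem107 at −1.72 to Ift43 at 1.85.

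Of the 7 IFT-A genes, 3 were higher and 4 were lower, each of them without overlap between groups. Ift43, a small peripheral subunit of the complex (ENSMUSG00000007867.9, chromosome 12, 86082541 to 86162459 of GRCm38), had 73.5, 57.3 and 60.3 FPKM in SMC-TAZ-4SA, against 14.9, 17.5 and 18.2 FPKM in SMC-Ctrl. Every SMC-TAZ-4SA library lay above every SMC-Ctrl library, and the log2 fold change of 1.85 (SE 0.11, limma adjusted p = 1.11e-06) was the largest increase among the members. Tulp3, an adaptor through which IFT-A brings G protein-coupled receptors into the cilium, had 27.1, 27.6 and 26.6 FPKM in SMC-TAZ-4SA, against 12.7, 13.0 and 13.0 FPKM in SMC-Ctrl. Its groups were tight and far apart (log2 fold change 1.02, SE 0.05, limma adjusted p = 4.61e-07). Ift140, a core subunit (ENSMUSG00000024169.16, chromosome 17, 25016085 to 25099495), went the other way, with 2.97, 3.39 and 3.34 FPKM in SMC-TAZ-4SA and 9.58, 10.3 and 9.64 FPKM in SMC-Ctrl. All SMC-Ctrl libraries were higher for this gene (log2 fold change −1.36, SE 0.07, limma adjusted p = 3.39e-07).

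The other 4 genes of IFT-A moved by less than 0.4 on the log2 scale. Wdr19, also known as Ift144, was higher (0.29), a call that was lost with the same FPKM total (0.14, adjusted p = 0.177). Wdr35 (Ift121), Ift122 and Ttc21b (Ift139) were lower, at −0.37, −0.33 and −0.32. Since Ift43 was by far the most abundant of these transcripts in SMC-TAZ-4SA, it held 53.6% to 60.7% of the summed IFT-A level there and 24.9% to 28.7% in SMC-Ctrl. The sum over the 7 genes, the adaptor Tulp3 included, was accordingly 106.9 to 121 FPKM in SMC-TAZ-4SA and 59.9 to 63.4 FPKM in SMC-Ctrl. Without Ift43 and Tulp3 the remaining 5 genes summed to 20.6 to 22.0 FPKM in SMC-TAZ-4SA and 32.2 to 32.8 FPKM in SMC-Ctrl. The change in the sum thus had one sign with these 2 genes and the other without them. They are the largest risers of the role and were left out after their values were seen.

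Of the 10 IFT-B genes, 5 were higher and 5 lower, or 3 higher and 5 lower with the same FPKM total. Ift74, which with Ift81 forms the module that binds tubulin, had 26.6, 22.5 and 21.3 FPKM in SMC-TAZ-4SA, against 11.5, 10.9 and 12.1 FPKM in SMC-Ctrl. It was higher in all 3 SMC-TAZ-4SA libraries (log2 fold change 0.96, SE 0.09, limma adjusted p = 1.87e-05), whereas its partner Ift81 was lower (−0.32). Ift172, a peripheral subunit involved in turnaround at the tip, had 6.18, 6.94 and 7.23 FPKM in SMC-TAZ-4SA, against 3.63, 3.90 and 3.49 FPKM in SMC-Ctrl, without overlap (log2 fold change 0.73, SE 0.07, limma adjusted p = 2.89e-05). Ift52 and Ift88, core subunits, rose by 0.61 and 0.34, and Ift46 rose by 0.26. With the same FPKM total, Ift88 (0.16, adjusted p = 0.0625) and Ift46 (0.05, adjusted p = 0.483) were no longer called.

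Among the IFT-B genes that fell, Ift57, a peripheral subunit, had 10.2, 7.77 and 7.51 FPKM in SMC-TAZ-4SA, against 21.3, 21.4 and 20.6 FPKM in SMC-Ctrl (log2 fold change −1.23, SE 0.11, limma adjusted p = 1.2e-05). Ift27, a small GTPase of the complex, had 6.31, 5.65 and 5.40 FPKM in SMC-TAZ-4SA, against 12.7, 13.1 and 12.6 FPKM in SMC-Ctrl (log2 fold change −1.03, SE 0.07, limma adjusted p = 2.16e-06). In both genes the groups were well separated. Ift80 was lower by a smaller amount (−0.80). Ift20, which also works at the Golgi, was the weakest call of the members: it had 26.9, 22.5 and 22.1 FPKM in SMC-TAZ-4SA and 27.6, 26.3 and 32.4 FPKM in SMC-Ctrl, groups that overlapped (log2 fold change −0.26, limma adjusted p = 0.0453). Its call was lost without SMC-TAZ-4SA replicate 2 or 3 or SMC-Ctrl replicate 1 or 3, with adjusted p of 0.0739 to 0.154, and that of Ift46 without SMC-Ctrl replicate 1 or 2 (0.0918 and 0.0642).

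The dynein-2 motor was split as well, with 1 of its 4 genes higher and 1 lower. Dync2h1, the heavy chain that provides the motor activity (ENSMUSG00000047193.16, chromosome 9, 6928503 to 7184446), had 1.31, 2.11 and 2.07 FPKM in SMC-TAZ-4SA, against 8.08, 7.44 and 8.51 FPKM in SMC-Ctrl. Wdr60, an intermediate chain of the same motor (chromosome 12, 116206262 to 116263022), had 5.20, 5.24 and 5.42 FPKM in SMC-TAZ-4SA, against 1.42, 1.64 and 1.43 FPKM in SMC-Ctrl. The heavy chain was thus lower and the intermediate chain higher in every SMC-TAZ-4SA library, with log2 fold changes of −1.68 (SE 0.12, limma adjusted p = 3.35e-06) and 1.33 (SE 0.06, limma adjusted p = 1.96e-07). Wdr34, the other intermediate chain, was at 8.16, 5.84 and 6.32 FPKM in SMC-TAZ-4SA and at 5.42, 6.10 and 5.91 FPKM in SMC-Ctrl. The light intermediate chain Dync2li1 was at 7.48, 5.57 and 5.27 FPKM in SMC-TAZ-4SA and at 6.05, 6.66 and 6.03 FPKM in SMC-Ctrl. For both genes the groups overlapped and the test was not passed (limma adjusted p = 0.164 and 0.759). Without SMC-TAZ-4SA replicate 1, Dync2li1 was called lower (−0.17, adjusted p = 0.034), and with the same FPKM total Wdr34 changed sign (−0.01) and Dync2li1 was called lower (−0.23, adjusted p = 0.0463).

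**Figure D2:**
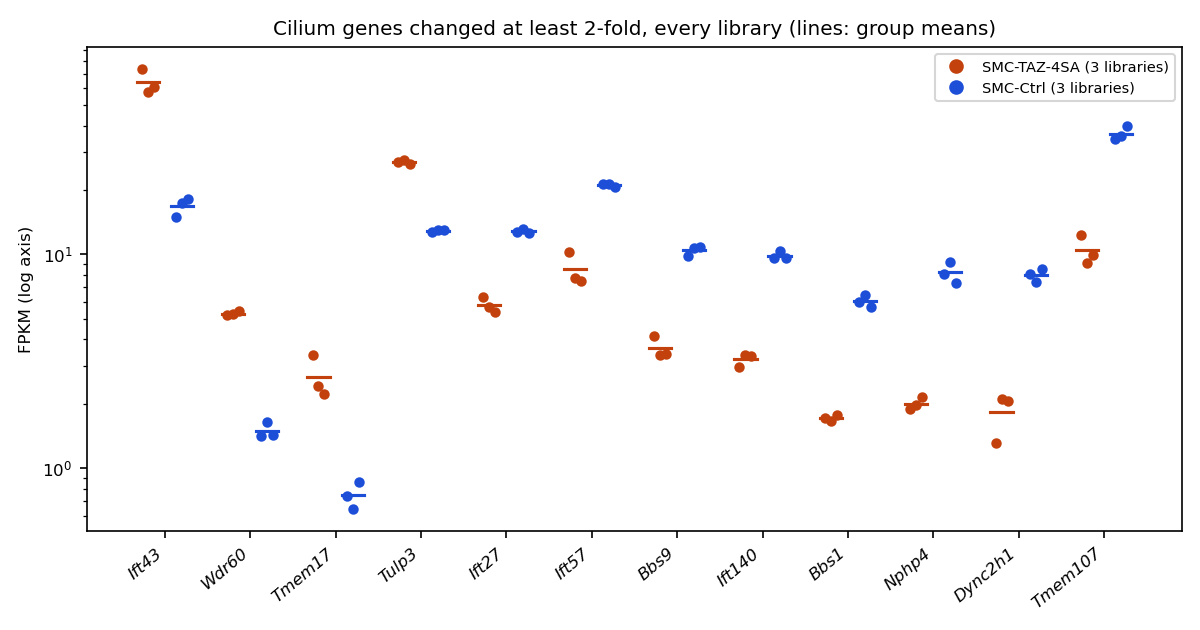
FPKM on a log axis in every library for the 12 cilium genes called with at least a 2-fold change on the log2(FPKM + 1) scale, ordered by fold change. Orange points are the 3 SMC-TAZ-4SA libraries and blue points the 3 SMC-Ctrl libraries, and lines are group means. In each gene the groups are apart: Ift43, Wdr60, Tmem17 and Tulp3 lie higher in SMC-TAZ-4SA and the other 8 lie lower.

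Of 8 genes of the BBSome and its chaperonins, 5 were lower and 2 higher. Bbs1, the subunit that recognises membrane cargo together with the GTPase Arl6, had 1.72, 1.67 and 1.78 FPKM in SMC-TAZ-4SA, against 6.01, 6.45 and 5.70 FPKM in SMC-Ctrl (log2 fold change −1.37, SE 0.06, limma adjusted p = 1.95e-07). Bbs9, a core subunit, had 4.16, 3.40 and 3.43 FPKM in SMC-TAZ-4SA, against 9.79, 10.7 and 10.9 FPKM in SMC-Ctrl (log2 fold change −1.30, SE 0.08, limma adjusted p = 1.65e-06). Both were lower in every SMC-TAZ-4SA library. Bbs2, also a core subunit, was lower as well (−0.89), as were Bbs10 (−0.43), a chaperonin-like assembly factor, and Bbs4 (−0.35), which brings in a link to the centriolar satellites. The 2 genes that rose, Bbs5 (0.33) and Bbs7 (0.31), rose by less than 1.4 times in FPKM and were no longer called with the same FPKM total (adjusted p = 0.0877 and 0.0939). Bbs12, the other chaperonin-like gene, was at 6.85, 7.24 and 7.11 FPKM in SMC-TAZ-4SA and at 6.10, 6.20 and 7.42 FPKM in SMC-Ctrl, which overlapped (limma adjusted p = 0.301). The genes of this role summed to 29.5 to 33.0 FPKM in SMC-TAZ-4SA and to 40.6 to 43.7 FPKM in SMC-Ctrl.

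The transition zone was the largest role. It had 18 genes, of which 17 were tested, with 6 lower, 4 higher and 7 not called. Tmem107, a membrane protein of the Meckel syndrome module (ENSMUSG00000020895.14, chromosome 11, 69070806 to 69073293), had 12.3, 9.12 and 9.93 FPKM in SMC-TAZ-4SA, against 34.5, 35.7 and 39.8 FPKM in SMC-Ctrl. It was the most abundant transition zone transcript of SMC-Ctrl and showed the largest decrease of all members on the log2(FPKM + 1) scale (log2 fold change −1.72, SE 0.11, limma adjusted p = 1.53e-06). Nphp4, of the nephronophthisis module (ENSMUSG00000039577.17, chromosome 4, 152476706 to 152563183), had 1.88, 1.97 and 2.14 FPKM in SMC-TAZ-4SA, against 8.09, 9.25 and 7.38 FPKM in SMC-Ctrl (log2 fold change −1.62, SE 0.09, limma adjusted p = 4.87e-07). By the ratio of mean FPKM the order differed, SMC-Ctrl being 4.38 times SMC-TAZ-4SA for Dync2h1, 4.12 times for Nphp4 and 3.51 times for Tmem107. Tmem231 (−0.83), Mks1 (−0.57), Tmem67 (−0.35) and Cep290 (−0.32), all genes of the gate, were also lower.

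Against these, Tmem17, a membrane protein of the same gate (ENSMUSG00000049904.7, chromosome 11, 22512088 to 22519234), had 3.37, 2.42 and 2.21 FPKM in SMC-TAZ-4SA, against 0.744, 0.644 and 0.859 FPKM in SMC-Ctrl (log2 fold change 1.06, SE 0.11, limma adjusted p = 4.99e-05). Tmem17 met the expression filter in SMC-TAZ-4SA alone, being under 1 FPKM in every SMC-Ctrl library. Tmem138 (0.32) and Cc2d2a (0.19) were higher by small amounts, and neither was called with the same FPKM total (0.12 and 0.03, adjusted p = 0.138 and 0.738). Cc2d2a also lost its call in each fit that left out SMC-TAZ-4SA replicate 2 or 3 or SMC-Ctrl replicate 1 or 3 (adjusted p of 0.054 to 0.0777).

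The tectonics, which join the gate's membrane and inner parts, did not pass on the deposited scale. With the same FPKM total, Tctn1 (−0.29, adjusted p = 0.0462), Tctn2 (−0.34, adjusted p = 0.000955) and Tctn3 (−0.21, adjusted p = 0.0306) were all called lower. Tctn1 was at 2.36, 2.78 and 2.22 FPKM in SMC-TAZ-4SA and at 2.80, 3.31 and 2.27 FPKM in SMC-Ctrl (limma adjusted p = 0.305). Tctn3 was at 4.70, 4.63 and 4.66 FPKM in SMC-TAZ-4SA and at 5.07, 4.62 and 4.61 FPKM in SMC-Ctrl (limma adjusted p = 0.715), values within a narrow range. Tctn2 was at 5.33, 5.07 and 4.75 FPKM in SMC-TAZ-4SA and at 5.55, 5.93 and 5.67 FPKM in SMC-Ctrl, the only one of the genes that did not pass whose groups were apart (log2 fold change −0.15, limma adjusted p = 0.0556). It was also called lower without SMC-TAZ-4SA replicate 1 (adjusted p = 0.0194), with the same upper quartile (0.0125) and at a filter of 5 FPKM (0.048). Rpgrip1l, a scaffold of the gate, was at 2.18, 2.74 and 2.96 FPKM in SMC-TAZ-4SA and at 3.14, 2.84 and 3.27 FPKM in SMC-Ctrl (limma adjusted p = 0.112), and was called lower without SMC-TAZ-4SA replicate 3 (adjusted p = 0.0472) and with the same FPKM total (−0.34, adjusted p = 0.0242). Tmem216 was at 5.79, 4.16 and 4.32 FPKM in SMC-TAZ-4SA and at 3.90, 3.70 and 4.72 FPKM in SMC-Ctrl (limma adjusted p = 0.24). Tmem237 was at 20.6, 15.4 and 17.5 FPKM in SMC-TAZ-4SA and at 14.5, 15.4 and 17.3 FPKM in SMC-Ctrl (limma adjusted p = 0.198). In the last 2 genes the highest library was SMC-TAZ-4SA replicate 1 and the groups overlapped. Rpgrip1, a relative of Rpgrip1l known from photoreceptors, was below the filter, at 0.013, 0.0848 and 0.00843 FPKM in SMC-TAZ-4SA and 0.113, 0.0868 and 0.116 FPKM in SMC-Ctrl. Its annotated exons share 1057 bases with the abundant gene Supt16, so these low values are uncertain.

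Of the 5 genes that start the cilium or set its membrane, 4 were lower and 1 was higher. Ttbk2, the kinase that licenses the mother centriole to grow a cilium, had 2.57, 3.37 and 3.52 FPKM in SMC-TAZ-4SA, against 5.94, 5.29 and 5.69 FPKM in SMC-Ctrl (log2 fold change −0.68, SE 0.10, limma adjusted p = 0.000269). No library of one group reached the range of the other. Its exons share 3409 bases with Cdan1 on the same strand, which was at a mean of 4.37 FPKM in SMC-TAZ-4SA and 6.34 FPKM in SMC-Ctrl, so reads of these genes may have been split. Shared exon bases also make Cep290 (881 with 4930430F08Rik), Inpp5e (874 with Pmpca) and Tctn1 (1574 with Hvcn1) uncertain. Arl3 (−0.48), the GTPase that releases lipidated cargo inside the cilium, and Cep164 (−0.27), the distal appendage protein that recruits Ttbk2, were lower. Inpp5e (−0.25), the phosphatase that sets the phosphoinositides of the ciliary membrane, was lower too, while Arl13b, the GTPase that holds Inpp5e there, was higher (0.27). With the same FPKM total Arl13b was no longer called (0.09, adjusted p = 0.403). Arl3 was the most abundant member in SMC-Ctrl, at 48.5 ± 2.44 FPKM (SD, n = 3), and was at 34.7 ± 4.86 FPKM in SMC-TAZ-4SA, where Ift43 took the top place with 63.7 ± 8.61 FPKM, against 16.9 ± 1.73 FPKM in SMC-Ctrl.

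Because a uniform scaling of a library cancels in a ratio within it, the highest riser of each role was divided by the largest faller. The pairs were chosen from the fold changes and are given without a test. A deviation that goes with transcript length, described below for SMC-TAZ-4SA replicate 1, does not cancel. Wdr60 over Dync2h1 was 3.97, 2.49 and 2.62 in SMC-TAZ-4SA, against 0.175, 0.221 and 0.168 in SMC-Ctrl. The intermediate chain thus exceeded the heavy chain per transcript length in each SMC-TAZ-4SA library and was below it in each SMC-Ctrl library. Ift43 over Ift140 was 24.8, 16.9 and 18.1 in SMC-TAZ-4SA, against 1.56, 1.69 and 1.89 in SMC-Ctrl. Ift74 over Ift57 was 2.597, 2.90 and 2.83 in SMC-TAZ-4SA, against 0.541, 0.509 and 0.590 in SMC-Ctrl, and so crossed 1 as well. Tmem17 over Tmem107 averaged 0.254 ± 0.0271 in SMC-TAZ-4SA and 0.0204 ± 0.00205 in SMC-Ctrl (SD, n = 3), a gap of 12.5 times with Tmem107 ahead in both groups. Bbs5 over Bbs1 averaged 3.88 ± 0.426 in SMC-TAZ-4SA and 0.844 ± 0.0827 in SMC-Ctrl, and Arl13b over Ttbk2 averaged 2.12 ± 0.292 in SMC-TAZ-4SA and 0.934 ± 0.0237 in SMC-Ctrl. In all 6 pairs the order of the transcripts or the size of their gap differed between the groups, as the choice of the pairs ensures.

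**Figure D3:**
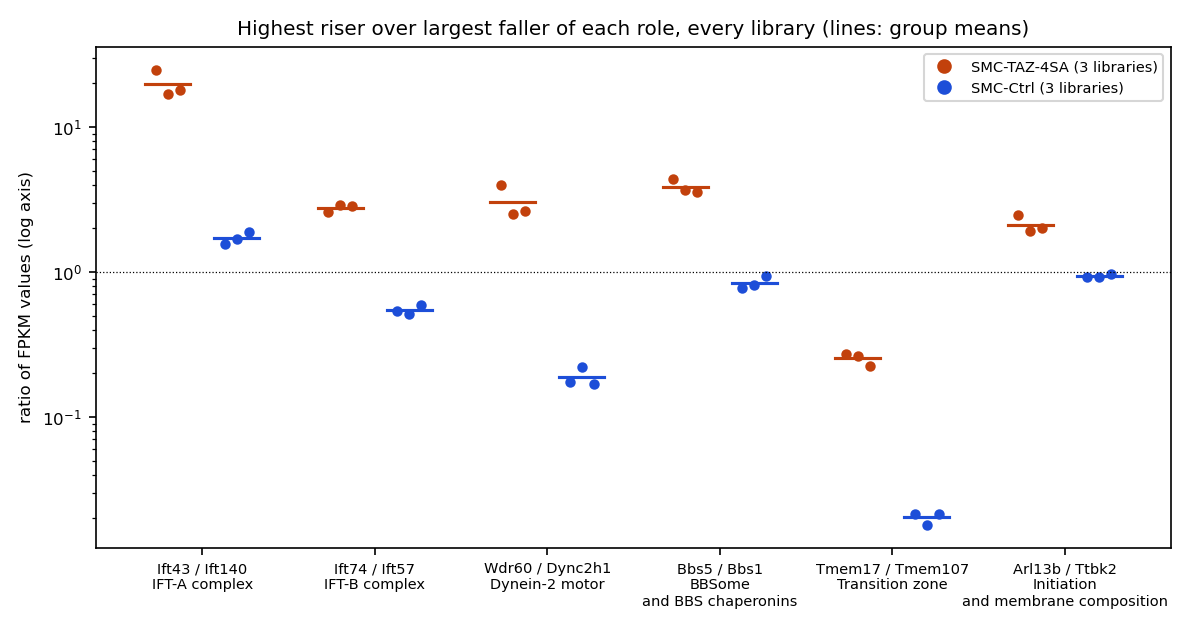
Ratio of FPKM values, on a log axis, of the highest riser over the largest faller of each of 6 roles, in every library. Orange points are SMC-TAZ-4SA and blue points SMC-Ctrl, with lines at the group means and a dotted line where both transcripts are equal. The ratio of Wdr60 to Dync2h1 lies between 2.49 and 3.97 in SMC-TAZ-4SA and between 0.168 and 0.221 in SMC-Ctrl.

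RFX transcription factors are known to switch on cilium genes through the X-box, a motif of 2 inverted arms, so the promoters of the members were searched for it. Promoters were windows of 300 bases, 250 before and 50 after the gene start of RefSeq on GRCm38.p6, and 45 members had one. The paired X-box, taken as GTTNCC and GGNAAC with 2 bases between them on either strand, stood in the promoters of 3 of the 45 members (6.67%), in 57 of 9014 tested genes with a promoter (0.632%) and in 143 of 27025 genes in all (0.529%). A single arm GTTGCC, which can lie inside a paired site and was likewise read on both strands, stood in 19 of the 45 members (42.2%), in 14.7% of the tested genes and in 14.1% of all genes. Among the members, it stood in 5 of 15 called higher and in 10 of 21 called lower. Spacings other than 2 bases were not searched. At this spacing the sites of these 3 members are the only ones. The paired sites are shown 5′ to 3′ along the gene, with the motif in capitals. That of Bbs7 lies at chr3:36613489-36613518 on the minus strand, 114 bases upstream of the start, that of Mks1 at chr11:87853183-87853212 on the plus strand, 17 bases upstream, and that of Tctn1 at chr5:122264411-122264432 on the minus strand, 43 bases downstream at the end of the window.
Bbs7: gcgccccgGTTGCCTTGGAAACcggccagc
Mks1: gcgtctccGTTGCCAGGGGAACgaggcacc
Tctn1: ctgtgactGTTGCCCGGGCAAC
Of these genes Bbs7 was slightly higher, Mks1 was lower and Tctn1 did not pass.

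Single arms were also read for the 12 members with at least a 2-fold change, as a description chosen after their values were seen. They stood in 6 of the 8 that fell (Bbs1, Dync2h1, Ift140, Ift27, Ift57 and Nphp4, not Bbs9 or Tmem107) and in none of the 4 that rose (Ift43, Tmem17, Tulp3 and Wdr60), which says only that these letters were absent from those windows. The sites of 5 of them are shown along the gene, with the arm in capitals (GGCAAC where it lies on the other strand). They are at chr19:4906609-4906638 for Bbs1, chr9:7177009-7177034 for Dync2h1, chr17:25015965-25015994 for Ift140, chr15:78174073-78174102 for Ift27 and chr4:152478131-152478160 for Nphp4. The sites of Dync2h1 and Nphp4 lie inside these genes as GENCODE places them, with starts at 7184446 and 152476706. They count as promoter matches by the RefSeq starts alone.
Bbs1: atggctgagctgGTTGCCaaggcgacgcct
Dync2h1: gcgacggagcttGGCAACtgctgagt
Ift140: gcgtgttgtgacGGCAACctcgcgcccttg
Ift27: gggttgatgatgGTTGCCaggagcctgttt
Nphp4: tggtgcatcccgGTTGCCagctgatgttgg
A match to these letters is not a binding site, and binding was not measured.

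The RFX factors themselves were then read from the table. Rfx3, a main regulator of cilium genes, had 1.66, 1.88 and 2.01 FPKM in SMC-TAZ-4SA, against 17.2, 15.1 and 15.9 FPKM in SMC-Ctrl (log2 fold change −2.58, SE 0.08, limma adjusted p = 1.26e-08). Rfx2 was at 0.814, 0.818 and 0.815 FPKM in SMC-TAZ-4SA, against 4.24, 4.42 and 4.39 FPKM in SMC-Ctrl (−1.56), and met the filter in SMC-Ctrl alone, so that it had to be lower to be tested. Rfx7 fell by 1.01, while Rfx1 (−0.11) and Rfx5 (−0.05) did not pass (limma adjusted p = 0.286 and 0.529), and Rfx4 and Rfx6 were below the filter. Of the 4 RFX genes that met the filter in both groups, 2 were lower and none was higher. Over all tested genes 39.7% were lower and 40.7% higher, a set that also holds genes that met the filter in a single group. Rfx2 and Rfx7 are named here after their values were seen.

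Cilium genes outside the members were read from 6 lists of 91 genes, of which 85 were tested. In SMC-TAZ-4SA 23 (27.1%) were higher and 39 (45.9%) lower, beside 40.7% higher and 39.7% lower over all tested genes. Of these, 5 met the filter in SMC-TAZ-4SA alone and 1 in SMC-Ctrl alone, and among the 79 that met it in both groups 18 were higher and 38 lower. With the same FPKM total 18 of the 85 were higher and 52 lower. Among 19 tested partners of IFT and the BBSome, 11 were lower and 1 higher. Kif3b, a motor subunit of kinesin-2, fell by 1.68, with 9.96, 10.5 and 11.2 FPKM in SMC-TAZ-4SA, against 35.6, 35.8 and 36.7 FPKM in SMC-Ctrl, whereas its partner subunit Kif3a was at 6.79 FPKM in SMC-TAZ-4SA and 6.96 FPKM in SMC-Ctrl and did not pass. Hspb11 (Ift25), the partner of Ift27, was the 1 gene of this list that rose (0.26, limma adjusted p = 0.0388). Rabl5 (Ift22) averaged 20.6 ± 4.59 FPKM in SMC-TAZ-4SA and 24.4 ± 1.56 FPKM in SMC-Ctrl, and the dynein light chain Tctex1d2 averaged 10.0 ± 0.960 FPKM in SMC-TAZ-4SA and 10.6 ± 2.41 FPKM in SMC-Ctrl (SD, n = 3), and neither passed.

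Of 14 transition zone and inversin partners, 5 were higher and 7 lower. Tmem218 led the increases (1.003) and Ahi1, a gene of Joubert syndrome, the decreases (−1.44). Of 21 genes of the basal body, its appendages and ciliogenesis, 12 were lower and 3 higher, from Intu (−1.46), a planar polarity effector of ciliogenesis, to Fbf1 (0.54), a distal appendage protein. Ccp110 and Cep97, named after their values were seen, form the cap that Ttbk2 helps to remove from the mother centriole, and they fell by 1.36 and 1.40. Ccdc41 (Cep83), Rab3ip (Rabin8) and Mark4 of this list, with log2 fold changes of 0.05, 0.04 and 0.33, did not pass.

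Of 11 tested genes of cilium disassembly, 6 were higher and 3 lower, all having met the filter in both groups. Aurka, the kinase that triggers resorption of the cilium and also drives mitosis, had 92.5, 76.2 and 75.5 FPKM in SMC-TAZ-4SA, against 25.0, 26.2 and 25.8 FPKM in SMC-Ctrl (log2 fold change 1.62, SE 0.09, limma adjusted p = 5.68e-07). Its activator Nedd9, named after its values were seen, rose by 1.48, and Kif24, a kinesin that acts with Ccp110, fell by 1.02. Hdac6 (−0.12) and Plk1 (0.17) did not pass. Of 10 proliferation genes, 2 were higher and 3 lower. Ccnd1 (5.38), which met the filter in SMC-TAZ-4SA alone, and Mki67 (−1.30) were the extremes, and the 5 that did not pass (Ccnb1, Ccna2, Mcm2, Mcm5 and Ccne1) lay between −0.14 and 0.06. Their part in the cilium gene changes was not tested.

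Of 15 tested genes of ciliary signalling, 5 met the filter in SMC-TAZ-4SA alone and so had to be higher to be tested. Among the 10 that met it in both groups, 3 were higher and 3 lower, with a median log2 fold change of −0.03. Kif7, called higher, met it only in part in SMC-Ctrl, being at 1.22, 1.23 and 0.980 FPKM there. Smo, the Hedgehog transducer that acts in the cilium, had 31.8, 35.9 and 34.1 FPKM in SMC-TAZ-4SA, against 0.127, 0.0812 and 0.0656 FPKM in SMC-Ctrl (log2 fold change 5.00, SE 0.07, limma adjusted p = 2.95e-10). Ptch1, the Hedgehog receptor that restrains Smo, had 2.74, 5.19 and 5.04 FPKM in SMC-TAZ-4SA, against 22.4, 22.0 and 20.2 FPKM in SMC-Ctrl (log2 fold change −2.12, SE 0.18, limma adjusted p = 1.13e-05). The receptor was thus the more abundant of the pair in SMC-Ctrl and the transducer in SMC-TAZ-4SA. Evc and Evc2, which bind Smo at the base of the cilium, and the transcription factors Gli1 and Gli2 rose too (2.04, 2.74, 1.26 and 1.71), and are named after their values were seen. These 4 and Smo are the genes that met the filter in SMC-TAZ-4SA alone. Sufu, the inhibitor of Gli factors (−0.05), and Pde6d, the carrier of lipidated cargo such as Inpp5e (0.00), did not pass.

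**Figure D4:**
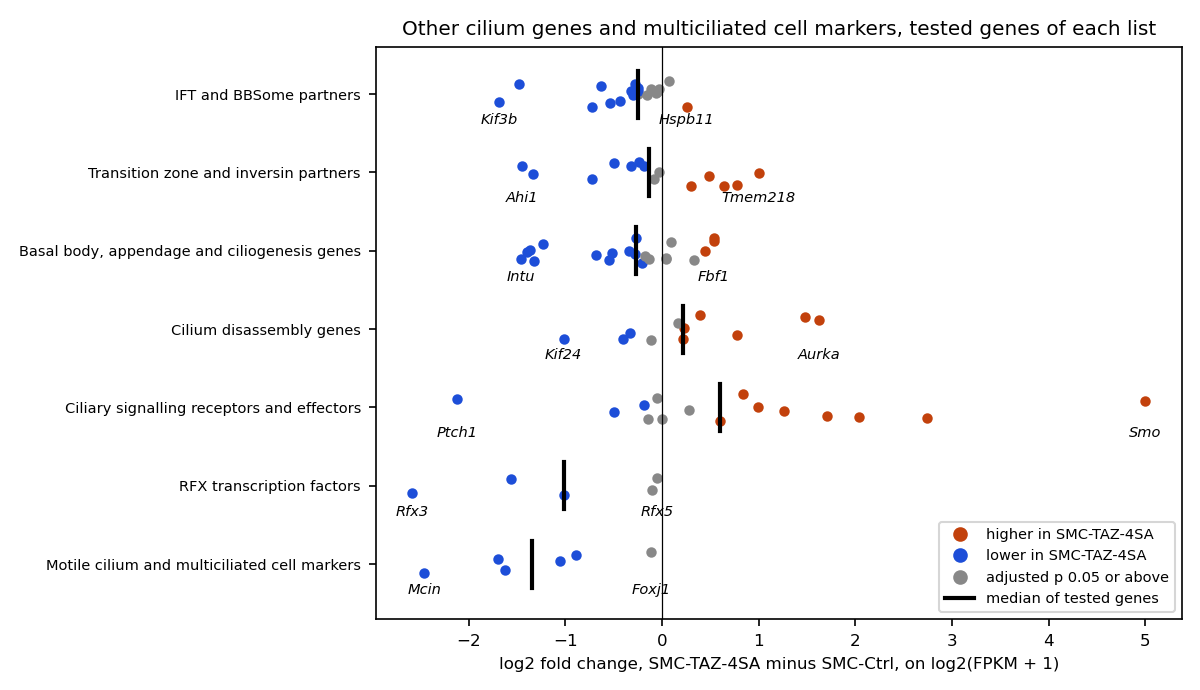
Log2 fold changes of log2(FPKM + 1), SMC-TAZ-4SA minus SMC-Ctrl, of the tested genes in 6 lists of other cilium genes and in the markers of motile cilia. Each point is a gene, coloured by its call, including genes that met the filter in 1 group alone (5 signalling genes, among them Smo, in SMC-TAZ-4SA, and Rfx2 and 4 motile cilium markers in SMC-Ctrl), black bars are list medians, and the lowest and highest gene of each list is named. The ciliary signalling list reaches from Ptch1 at −2.12 to Smo at 5.00.

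Several members also serve motile cilia, so markers of multiciliated cells were read beside them. Of 20 such genes, 14 were below the filter, among them the ciliary dyneins Dnahc5, Dnahc9 and Dnahc11 and the axonemal genes Hydin and Spag6. Of the 6 tested, Mcin, Ccdc39, Ccdc40 and Rsph1 met the filter in SMC-Ctrl alone and so had to be lower, and of the other 2 Rsph9 was lower and Foxj1 did not pass. The 20 genes summed to 3.59 to 4.95 FPKM in SMC-TAZ-4SA and to 19.2 to 22.2 FPKM in SMC-Ctrl. Mcin (Mcidas), a regulator of multiciliated cell fate, was at 0.0477, 0.0136 and 0.0321 FPKM in SMC-TAZ-4SA, against 4.49, 4.79 and 4.72 FPKM in SMC-Ctrl (−2.46), and Foxj1, the master regulator of motile cilia, was at 1.07, 1.14 and 0.751 FPKM in SMC-TAZ-4SA and at 1.08, 1.29 and 1.06 FPKM in SMC-Ctrl, which overlapped (limma adjusted p = 0.258). None of the 20 markers was at 0 in every library, and their part in the changes of the members was not tested.

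SMC-TAZ-4SA replicate 1 stood apart from the others of its group, with Pearson's r over all tested genes of 0.991 and 0.990 to them, against 0.997 between those. Within the members its deviation went with transcript length. Across 51 members (1 library set against the mean of the other SMC-TAZ-4SA libraries), the deviation had a Pearson's r of −0.79 and a Spearman's rho of −0.76 with annotated exon bases, and across 11457 tested genes these were −0.41 and −0.49. Of the 26 shorter members, 22 were higher in this library than in the other 2, against 9 of the 25 longer ones. Dync2h1, the longest with 16348 exon bases, was lowest there (−0.42 on the log2 scale). The group difference went less with length over the members, with an r of −0.21 and a rho of −0.22. Without this library 16 members were still called higher, and 28 were called lower in place of 25.

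**Figure D5:**
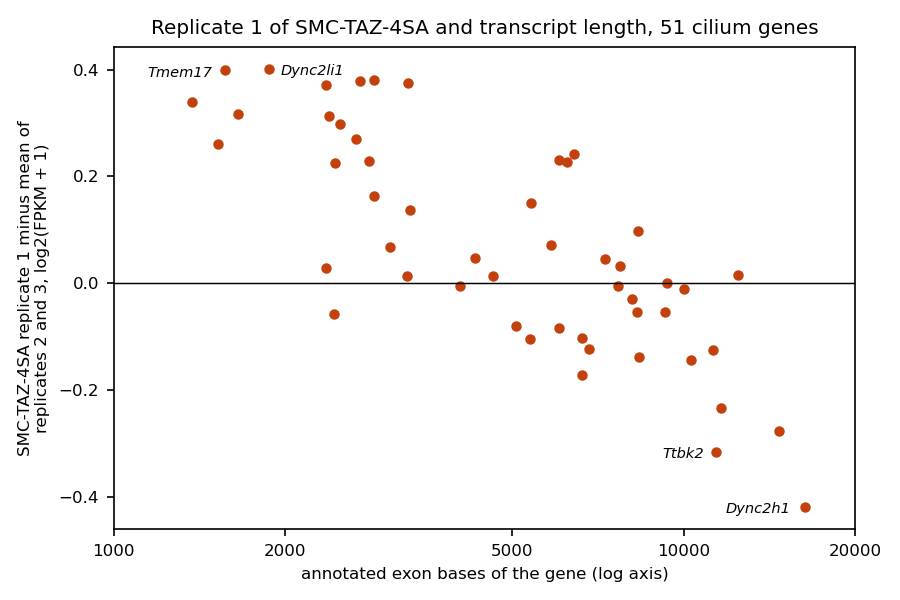
Deviation of SMC-TAZ-4SA replicate 1 from the mean of replicates 2 and 3, in log2(FPKM + 1), against annotated exon bases (log axis) for 51 cilium genes. Each point is a gene. Shorter genes such as Tmem17 and Dync2li1 lie above 0 and the longest, Dync2h1, lies lowest, with a Spearman's rho of −0.76.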

How the data were processed

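Total RNA of 6 libraries was extracted with TRIzol and sequenced as read pairs on a NovaSeq instrument, per the methods of the study, and the submitters' processing notes name mm10 and STAR 2.6. The authors deposited FPKM values, 1 column per library. How FPKM were computed, on which annotation and with which strand setting is not given in the sources used here, so genes with overlapping exons are uncertain (14 members share exon bases with another gene). Groups came from the sample titles. The members and gene lists were chosen with earlier results of these data known.

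Genes at 1 FPKM or more in at least 3 of 6 libraries were tested, leaving out 254 symbols on several lines (none a member). Values were transformed to log2(FPKM + 1), and the comparison used limma 3.58.1 (R 4.3.3), with group as the only term, a mean-variance trend, 2-sided tests and Benjamini-Hochberg adjustment over 12141 genes at a threshold of 0.05. The study's own count test could not be used on FPKM. The script was tested on simulated data in which few genes changed, unlike here, so this checks the code and not these calls. Depth is unknown beyond its ratio between libraries, read from steps of values under 0.3 FPKM. An exact 0 may be a failed estimate, as all 6 libraries list Rps12 and Rps28 at 0. Positions and exon bases are from GENCODE M21 on GRCm38 (mm10), promoters from RefSeq on GRCm38.p6. The table's older symbols were used (Mcin, Rabl5, Dnahc5).

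Values per library are given for the 6 highest and 6 lowest members, the largest change of each role, changes of at least 2-fold, members that did not pass and members below the filter. Of each other list, the highest and lowest gene and those of 10 FPKM or more that did not pass are named, and any other gene was named after its values were seen. Of the tested members 2 are counted but not reported here singly, nor is 1 promoter site. Alternatives were a pseudocount of 0.1, no filter, a filter of 5 FPKM, the same FPKM total, the same upper quartile, no trend, a replicate block and leaving out each library.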

Additional observations from a re-analysis of the deposited data

How the results depend on the processing

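Of the 649 alternative values of the 51 tested members, 606 kept their direction and side of the threshold, 12 passed it newly, 23 lost it and 8 changed sign. For 32 members every alternative run kept both. Members called higher numbered 16 as reported, 16 with a pseudocount of 0.1 or without the filter, 11 at 5 FPKM, 15 with the same upper quartile and 8 with the same FPKM total, where Arl13b, Bbs5, Bbs7, Cc2d2a, Ift46, Ift88, Tmem138 and Wdr19 lost the call, and 6 members were newly called lower. Under that scaling Bbs12 (−0.10), Tmem216 (−0.014), Tmem237 (−0.041) and Wdr34 (−0.0083) changed sign. With 1 library left out, members called higher ranged from 14 to 16 and members called lower from 24 to 28. In these fits Dync2li1 ranged from −0.17 to 0.044 (0.0097 and 0.044 without SMC-TAZ-4SA replicate 2 and 3, and 0.0003 without SMC-Ctrl replicate 2) and Tctn3 from −0.044 to 0.013. The cause of these shifts was not tested. With the replicate block 14 members were called higher and 24 lower. Libraries of the same number did not deviate together (r of −0.25, −0.06 and −0.31), beside r of −0.30 to 0.39 between libraries of different number. With 3 libraries per group, these values cannot show whether libraries of the same number were prepared together. No test of read sampling was possible, since FPKM keeps no depth.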
